A study of Mus musculus with 2 samples.

Results

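The translation initiation and elongation factors on these arrays were taken as all probes whose single annotated symbol is Eif or Eef followed by a digit, leaving out the Y-linked Eif2s3y. The rule used names and no measured value. It found 74 probes of 58 genes, among the 18069 genes to which at least 1 probe belongs alone. Of the 58, 56 read above the floor on at least 1 array and were compared, 54 of them above it on both. Eif5b and Eif4e1b were below it on both arrays and have no ratio. Another 6 probes carried an Eif or Eef symbol together with other genes and were not used to name a gene. One of the 56, Eif2c5, bears an old name of the Argonaute family and is kept apart from the complexes below.

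Total RNA came from the whole embryo proper of mice at E8.5 (embryonic day 8.5), in litter-matched pools of 42 wild-type and 45 mDom-/- embryos, which by their label lack mDom on both alleles (p400, present symbol Ep400), the ATPase of the TIP60/p400 chromatin-remodelling complex. The kind of allele, the strain and the number of litters are not stated in the labels. One 1-colour CodeLink oligonucleotide array was hybridised per pool, so no replicate error can be given, nothing was tested, and precision is limited to what 2 arrays allow. The design asks which messengers differ in level without mDom.

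Intensities below are in units of the array median, and the floor was 0.541. Ratios are mDom-/- over wild-type on the log2 scale, with both values raised to the floor first. Intensity depends on the probe as well as the messenger, so messenger levels are compared between arrays and not between genes. Intensities are put together over genes only to sum markers, where bright probes weigh most, and to rank genes by brightness. The only internal yardstick is the disagreement between probes of 1 gene: over 1302 genes with 2 probes above the floor on both arrays, it corresponds to an SD of 0.25 for a log2 ratio. The 2 probes of the targeted gene Ep400 read 0.215 and 0.470 in wild-type and -0.029 and 0.071 in mDom-/-, all below the floor, so they give no check of the labels. Markers of primitive red cells were lower in the mDom-/- pool, where the summed intensity of Hbb-y, Hba-x and Alas2 was 30.3 against 339.7 in wild-type. The embryo markers Pax3, Meox1, Myl7, Nkx2-5, Twist1, Foxa2 and Hoxb1 were above the floor on both arrays, and Sox2 was below it on both. The summed intensity of these 7 markers was 461.2 in wild-type and 486.8 in mDom-/-. Myl7 alone read 354.4 and 374.5, and the median log2 ratio of the 7 was 0.04 with 3 lower. The summed intensity of 7 visceral endoderm and yolk sac markers was 548.1 and 625.2, with Amn below the floor, but their median log2 ratio was -0.13 with 4 of the 7 lower, and the bright Ttr alone read 166.6 and 251.2. The summed intensity of 2 trophoblast and decidua markers was 35.1 and 32.7, with Tpbpa below the floor. The part of these cells in the ratios below was not tested. In pooled whole embryos, fewer cells of a type and less RNA per cell cannot be told apart.

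As background, initiation factors bring the small ribosomal subunit, the initiator tRNA and the messenger together. eIF2 carries the initiator tRNA, eIF2B recharges eIF2 with GTP, eIF3 is the large scaffold on the small subunit, and eIF4F (the cap-binding eIF4E, the scaffold eIF4G and the helicase eIF4A) recruits capped messengers. Elongation factor eEF1A then delivers each aminoacyl-tRNA, eEF1B recharges eEF1A, and eEF2 moves the ribosome along. Kinases that phosphorylate eIF2 slow initiation under stress, and the mTOR pathway controls eIF4E through its binding proteins. Many of the elongation factor messengers share with those of ribosomal proteins a terminal oligopyrimidine (TOP) tract, which ties their translation to mTOR. Eif4e is a known target of Myc, a factor that binds the sequence CACGTG.

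That sequence was present upstream of several factor genes. In RefSeq promoters (GRCm38.p6), 43 of the 56 compared factor genes had an entry. CACGTG, which reads the same on both strands, stood within 250 bases before a start site in 11 of the 43 (25.6%), against 9.53% of the 10046 compared genes with an entry and 7.61% of all 17492 protein-coding genes in the table. CCGGAAG on either strand, the core that ETS factors bind, was in 10 of 43 (23.3%), against 13.9% of compared genes. TATAAA on either strand was in 3 of 43 (6.98%), against 9.46%. The motifs were chosen with results in view, no test was made, and a match is not a binding site. The median log2 ratio was -0.08 for the 11 factor genes with CACGTG and -0.07 for those with an entry and no CACGTG. For CCGGAAG the medians were -0.14 with and -0.06 without, and for TATAAA 0.20 for the 3 genes with it and -0.08 without.

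The promoters of 5 genes are shown, each the 250 bases before the start site, 5′ to 3′ on the gene's strand, with matches to the searched motifs, on either strand, in capitals. Eif4e (at its downstream start, chr3:138527018-138527267, plus strand), Eif4a1 (chr11:69672424-69672673, minus strand) and Eef2 (chr10:81176381-81176630, plus strand) hold CACGTG, and Eif4e holds it in 2 places. Eif3d (chr15:77970825-77971074, minus strand) and Eif2d (chr1:131152957-131153206, plus strand) are shown because their ratios were the lowest of the set. No searched motif lay in the Eif2d window, and Eif3d had CCGGAAG on the opposite strand.
Eif4e promoter: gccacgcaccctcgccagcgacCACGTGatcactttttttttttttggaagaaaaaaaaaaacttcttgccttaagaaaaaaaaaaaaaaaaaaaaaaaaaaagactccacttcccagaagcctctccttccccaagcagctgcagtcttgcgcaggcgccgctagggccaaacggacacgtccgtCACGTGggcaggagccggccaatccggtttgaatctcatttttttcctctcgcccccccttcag
Eif4a1 promoter: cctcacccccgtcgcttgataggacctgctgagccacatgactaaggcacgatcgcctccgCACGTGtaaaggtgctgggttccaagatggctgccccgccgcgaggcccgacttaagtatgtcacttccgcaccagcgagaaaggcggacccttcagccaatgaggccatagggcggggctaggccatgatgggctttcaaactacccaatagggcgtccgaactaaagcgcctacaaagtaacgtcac
Eef2 promoter: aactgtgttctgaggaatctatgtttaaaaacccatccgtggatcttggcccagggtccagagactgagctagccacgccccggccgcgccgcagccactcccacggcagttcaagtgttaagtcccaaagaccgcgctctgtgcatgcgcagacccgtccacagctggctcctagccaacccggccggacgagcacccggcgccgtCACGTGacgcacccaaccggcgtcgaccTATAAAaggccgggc
Eif3d promoter: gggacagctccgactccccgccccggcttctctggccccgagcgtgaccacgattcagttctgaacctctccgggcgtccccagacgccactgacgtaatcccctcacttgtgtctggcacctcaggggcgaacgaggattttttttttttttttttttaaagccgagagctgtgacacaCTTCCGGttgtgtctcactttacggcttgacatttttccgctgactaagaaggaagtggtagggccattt
Eif2d promoter: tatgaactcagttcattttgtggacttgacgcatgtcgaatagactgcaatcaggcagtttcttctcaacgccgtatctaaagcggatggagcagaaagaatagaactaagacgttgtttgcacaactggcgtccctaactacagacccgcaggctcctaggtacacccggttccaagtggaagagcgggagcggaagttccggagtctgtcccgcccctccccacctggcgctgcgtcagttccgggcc

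The factor genes as a set read nearly alike in both pools. Their median log2 ratio was -0.02, against -0.0036 over all 13137 compared genes, with 25 of 56 above 0 (44.6%, against 49.5% of all compared genes). No member was 2-fold apart, a size that 0.845% of compared genes reached upward and 0.929% downward. One member, Eif2d, was at least 1.5-fold lower and none at least 1.5-fold higher, where the shares of all compared genes were 4.35% and 4.09%. A log2 ratio within 0.32 of 0 was found for 51 of 56 factor genes (91.1%), against 73.4% of all compared genes. The factor genes were mostly bright, with 39 of 56 among the 3284 brightest genes, where ratios spread less. There, 37 of the 39 were within 0.32 of 0 (94.9%), against 87.1% of the 3284.

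**Figure D1:**
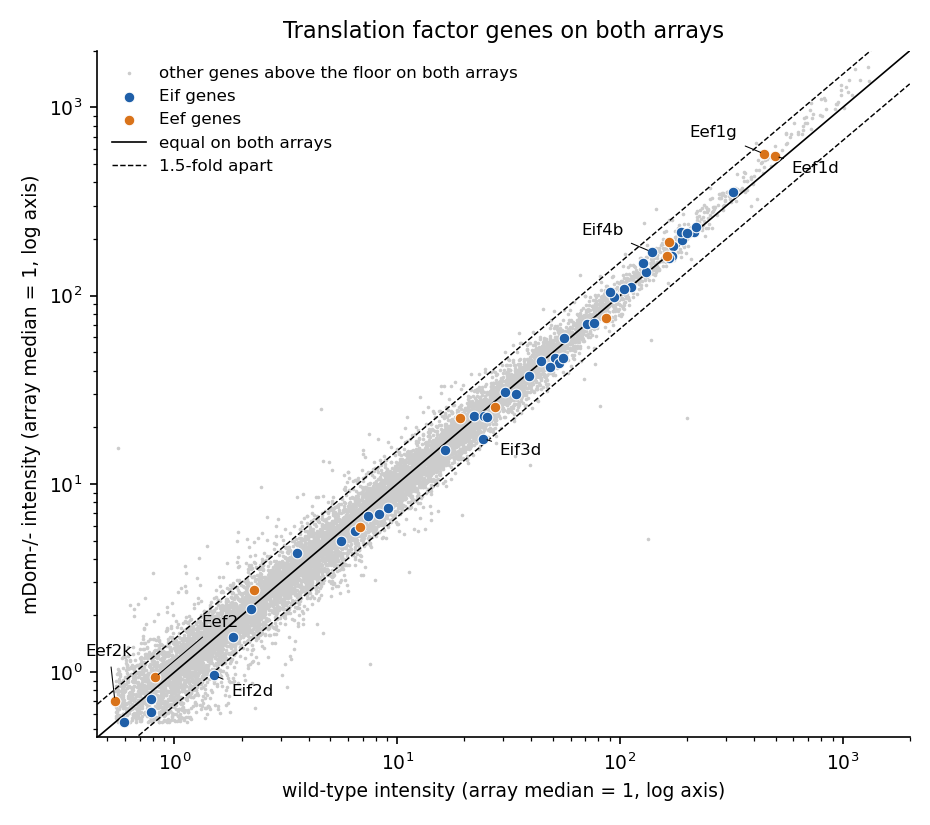
Intensity of each compared translation factor gene on the wild-type array (horizontal) and the mDom-/- array (vertical), both on log axes with the array median at 1 and values below the floor raised to it, over the other genes above the floor on both arrays in grey. The points follow the line of equality, with Eif2d beyond the 1.5-fold line.

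Against genes of like brightness the set read slightly lower. The brightest genes as a whole were higher on the mDom-/- array: the median log2 ratio was 0.10 in the brightest of 20 bins and 0.02 in the next. For each gene, the median of its own bin was subtracted. The median deviation of the factor genes was then -0.08, with 39 of 56 below 0 (69.6%, against 49.9% of all compared genes). In the brightest bin, 12 of 21 factor genes were below the bin's median, and in the next bin 8 of 9. Across the 56 genes, ratio and mean log2 intensity had Pearson's r of 0.35 and Spearman's rho of 0.44, a description of genes that share 2 arrays, while r was 0.04 over all 13137.

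**Figure D2:**
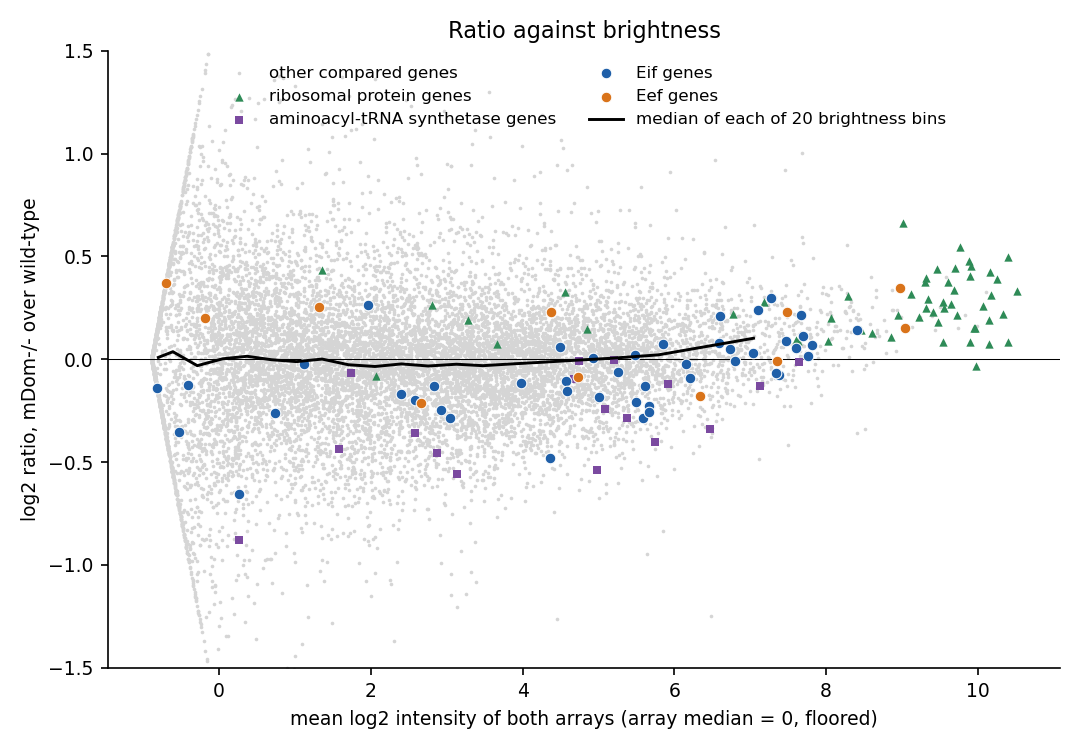
Log2 ratio of mDom-/- over wild-type (vertical, cropped at 1.5 either way) against mean log2 intensity (horizontal) for Eif genes, Eef genes, ribosomal protein genes, aminoacyl-tRNA synthetase genes and all other compared genes. The black line joins the medians of 20 brightness bins and bends up to 0.10 in the brightest bin, where most ribosomal protein genes lie above it, and the synthetase genes lie below it throughout.

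One step of initiation is the selection of the start codon. The only compared genes of the eIF1 and eIF1A families were Eif1b, an eIF1 paralogue, at 54.8 in wild-type and 46.7 in mDom-/- (log2 ratio -0.23), and Eif1ad, an eIF1A-like gene, at 34.2 and 30.1 (-0.18). Both were lower in the mDom-/- pool by less than the SD between probes. Of eIF2, which carries the initiator tRNA, the beta subunit gene Eif2s2 read 189.7 and 197.3 (0.06) and the X-linked gamma subunit gene Eif2s3x 93.6 and 98.8 (0.08). These 2 ratios were below 0 with quantile normalization (-0.06 for both) and loess (-0.09 and -0.02). The alpha subunit gene Eif2s1 was not analysed here.

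Eif2d, which encodes a factor able to place initiator tRNA without eIF2, had the lowest ratio of the set. Its intensity was 1.51 in wild-type and 0.961 in mDom-/-, 1.57-fold lower (log2 ratio -0.65). This is a dim probe near the floor, it is the gene's only probe, and with the 60th percentile floor the gene was not compared. Among the 3285 dimmest genes, which include Eif2d, 54.6% were within 0.32 of 0. Eif2a, another factor that can deliver initiator tRNA, read 51.1 and 46.7 (-0.13).

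The exchange factor eIF2B has 5 subunits, and all were compared. Eif2b1, the alpha subunit, which helps sense phosphorylated eIF2, read 53.2 in wild-type and 43.7 in mDom-/- (-0.28). Eif2b2, Eif2b4 and Eif2b5, the last encoding the catalytic subunit, lay between -0.02 and 0.02. Eif2b3 was dim, and its 2 probes had log2 ratios of -0.13 and -0.36. The median of the 5 was -0.02, and it lay between -0.10 and 0.00058 under the alternatives.

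All 4 genes for kinases that phosphorylate eIF2 were lower in the mDom-/- pool, 1 of them by a bound. Of all compared genes, 50.5% had a ratio below 0. Eif2ak3 (PERK, the sensor of unfolded protein in the endoplasmic reticulum) read 5.60 and 4.98 (-0.17), and Eif2ak4 (GCN2, the sensor of amino acid shortage) read 6.44 and 5.61 (-0.20). Both were lower by less than the SD between probes. Eif2ak2 (PKR, activated by double-stranded RNA) read 0.787 and 0.616 (-0.35), close to the floor, with its second probe below the floor on both arrays. Eif2ak1 (HRI, the heme-regulated kinase of red cells) read 0.596 and 0.111, and since the second value is below the floor the gene was at least 1.10-fold lower. Its log2 ratio was -1.31 with the 25th percentile floor and -2.43 with no floor, so its size is not set by these data, and with the 60th percentile floor it was not compared. Red cell markers were lower in the same pool, as given above, and their part in this value was not tested. The median of the 4 was -0.18 and stayed between -0.28 and -0.16 over the scaling, floor and probe alternatives.

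The eIF3 genes spanned the width of the set. Of 11 compared subunits, 7 were above 0 and 4 below, with a median of 0.05. That median was below 0 with quantile normalization (-0.02) and loess (-0.09), so the direction for the complex depends on the scaling. Eif3d, the subunit that can itself bind the messenger's cap, was the lowest at 24.3 in wild-type and 17.4 in mDom-/- (-0.48, 1.39-fold lower). It kept a ratio between -0.48 and -0.46 in every scaling and floor alternative, and it has 1 probe. Eif3c and Eif3a, scaffold subunits of the core, read 48.4 against 41.9 (-0.21) and 7.43 against 6.79 (-0.13). A brighter probe annotated to both Reep4 and Eif3a, which was not used to name a gene, read 70.7 and 82.4 (0.22).

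The other eIF3 subunits, all bright, lay close to the median of like genes. Eif3b, a core scaffold subunit, was the highest at 188.2 and 218.5 (0.22), but its second probe read 7.29 and 7.07 (-0.04). Eif3l read 323.4 and 356.7 (0.14), Eif3k 200.1 and 216.2 (0.11), and Eif3i 172.2 and 182.9 (0.09). These 3 were below 0 with quantile normalization and loess, from -0.06 to -0.0040. Eif3h, Eif3m and Eif3f had 0.07, 0.05 and 0.02, and likewise were below 0 with both, and Eif3e had -0.01 with a second probe at -0.23.

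Of 8 genes grouped as the cap-binding complex eIF4F and its helicases, 6 were below 0, against 50.5% of all compared genes. Their median was -0.07. The 6 include Eif4a3 and Eif4g2, whose probes disagree in sign. The cap-binding protein gene Eif4e went the other way, at 90.3 in wild-type and 104.5 in mDom-/- (0.21), while its dimmer probe read 4.15 and 4.03 (-0.04). Its paralogues Eif4e2 and Eif4e3 had 0.03 (-0.09 with loess) and -0.29. The helicase gene Eif4a1 read 170.7 and 161.8 (-0.08), its paralogue Eif4a2 16.5 and 15.2 (-0.12), and Eif4a3, a component of the exon junction complex rather than of eIF4F, had 4 probes between -0.10 and 0.05. The helicases thus differed from one another by less than the SD between probes.

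Of the scaffold genes, Eif4g2 (DAP5, a relative of eIF4G that lacks the eIF4E-binding part) read 55.6 and 46.5 (-0.26). Its second probe was above the floor on 1 array and gave 0.18, a bound, so its probes disagree in sign. Eif4g3 read 39.2 and 37.5 (-0.06). Eif4g1 was not analysed here.

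Eif4b, which encodes the protein that stimulates the eIF4A helicase, was among the higher members, and its 2 probes read alike. It read 139.0 in wild-type and 170.6 in mDom-/- by its brighter probe (0.30, 1.23-fold) and 47.9 and 57.5 by the other (0.26). Its ratio stayed above 0 in each scaling, floor and probe alternative, from 0.16 with loess to 0.32. Eif4h, a smaller protein with a like role, read 8.27 and 6.96 (-0.25).

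Among the eIF4E-binding proteins, which hold eIF4E away from eIF4G when mTOR is low, Eif4ebp1 read 56.2 and 59.3 (0.08), Eif4ebp2 3.57 and 4.28 (0.26) and Eif4ebp3 22.2 and 23.1 (0.06). All 3 were higher in the mDom-/- pool, the second by about the SD between probes. Eif4enif1, which carries eIF4E into the nucleus, read 24.6 and 22.9 (-0.10).

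The Eif5, Eif5a and Eif6 genes went both ways. Eif5, the GTPase activator of eIF2, read 126.9 in wild-type and 149.9 in mDom-/- (0.24). Eif5a, a factor that helps stalled ribosomes form peptide bonds and carries hypusine, read 76.3 and 71.6 (-0.09), and its paralogue Eif5a2 1.83 and 1.53 (-0.26). A brighter probe annotated to both Eif5a and Igfbp3, which was not used to name a gene, read 167.9 and 166.2 (-0.01). Eif6, which keeps the large subunit from joining too early, read 25.2 and 22.6 (-0.16).

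**Figure D3:**
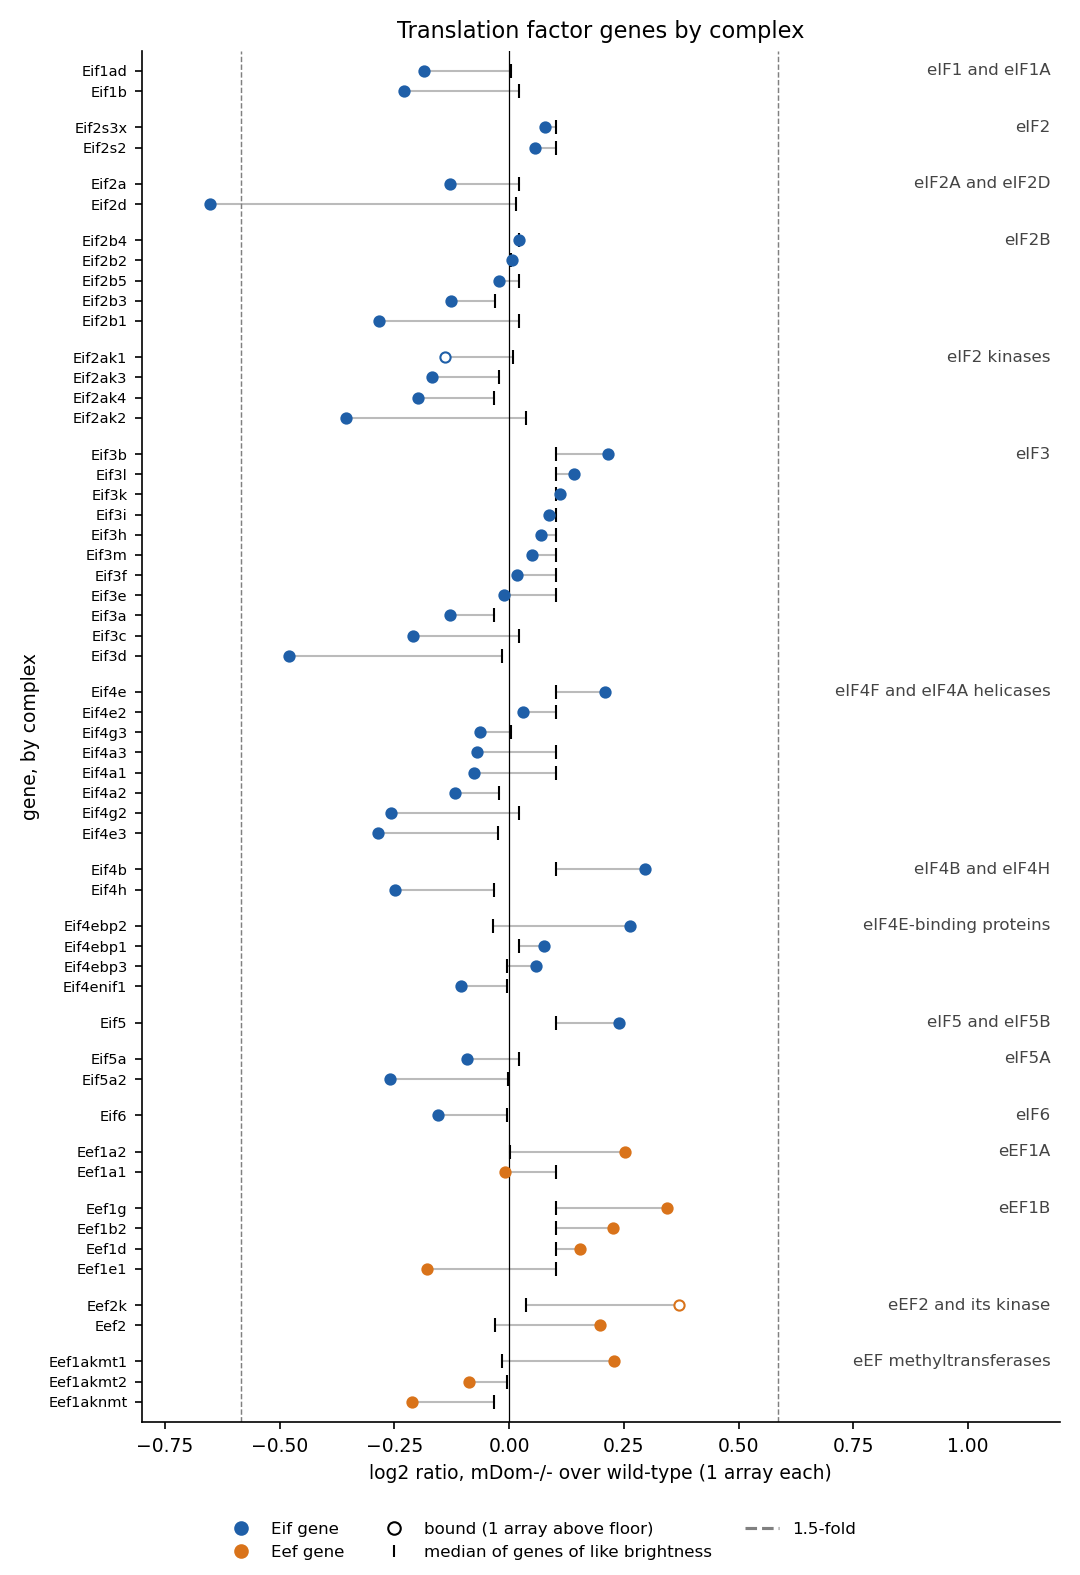
Log2 ratio of mDom-/- over wild-type for 55 factor genes grouped by complex (Eif2c5 not shown), as dots, with the median of genes of like brightness as a tick joined to each dot. Hollow dots are bounds (Eif2ak1 and Eef2k), dashed lines mark 1.5-fold, and Eif2d is the one dot beyond them.

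Genes with an Eef symbol read higher than genes with an Eif symbol, by a difference that was not tested. The groups follow symbols, so the Eef genes include methyltransferases and Eef2k, and the Eif genes include eIF2 kinases, eIF4E-binding proteins and Eif5a. The 11 compared Eef genes had a median log2 ratio of 0.20 with 7 above 0, and the 44 Eif genes, Eif2c5 left out, had a median of -0.07 with 18 above 0. After subtracting the median of like brightness these were 0.13 and -0.10. With loess the Eef median was 0.08 and the Eif median -0.11, and with quantile normalization 0.12 and -0.10. The Eef median of 0.20 was the value of Eef2, read by a dim probe at 0.819 and 0.940, close to the floor.

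Of the eEF1A genes, Eef1a1, the widely expressed form, read 163.2 in wild-type and 162.2 in mDom-/- (-0.01). Its second probe was below the floor on both arrays, an example of how far intensity depends on the probe. Eef1a2, the form of adult muscle and neurons, read 2.28 and 2.72 (0.25). The group of the exchange complex eEF1B also counted Eef1e1 of the synthetase complex. It had 3 of 4 compared genes above 0, against 49.5% of all compared genes, and a median of 0.19. That median was 0.02 with quantile normalization and 0.0056 with loess, with 2 of 4 above 0 in each. Eef1g, the gamma subunit gene, read 445.4 and 565.7 (0.35, 1.27-fold higher) by its brightest probe but 78.3 and 67.5 (-0.21) by the other, and the mean of both was 0.07. The brightest probe gave 0.12 with quantile normalization and with loess.

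Eef1b2, the gene of an exchange subunit, read 165.4 and 193.7 (0.23), with 0.13 under quantile normalization and 0.08 under loess. Eef1d, another exchange subunit gene, read 496.4 and 552.3 (0.15), with -0.08 under quantile normalization and -0.07 under loess. Eef1e1 (p18, which sits in the complex of aminoacyl-tRNA synthetases) went the other way at 86.5 and 76.3 (-0.18), a deviation of -0.28 from genes of like brightness.

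Eef2, the translocase gene, was represented by a dim probe at 0.819 and 0.940 (0.20). Eef2k, the kinase that inhibits eEF2, read 0.403 and 0.699, at least 1.29-fold higher, and 0.80 on the log2 scale with no floor. Both sit close to the floor. Of the genes for methyltransferases that modify elongation factors, Eef1akmt1 read 19.1 and 22.4 (0.23), Eef1akmt2 27.4 and 25.8 (-0.09) and Eef1aknmt 6.81 and 5.89 (-0.21). A brighter probe annotated to both Eef1aknmt and Klk1, which was not used to name a gene, read 34.5 and 32.9 (-0.07).

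Probes of the same gene show how far single values can be read. Of 11 factor genes with several compared probes, all ratios had 1 sign in 5 and differed in sign in 6. The widest gaps were those of Eef1g (0.56) and Eif4g2 (0.44), and the narrowest those of Eif4e2 (0.02) and Eif4b (0.03). Paralogues differed by similar amounts: Eef1a1 was 0.26 below Eef1a2, a difference of -0.26, Eif4e was 0.50 above Eif4e3, and Eif4a1 and Eif4a2 differed by 0.04.

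**Figure D4:**
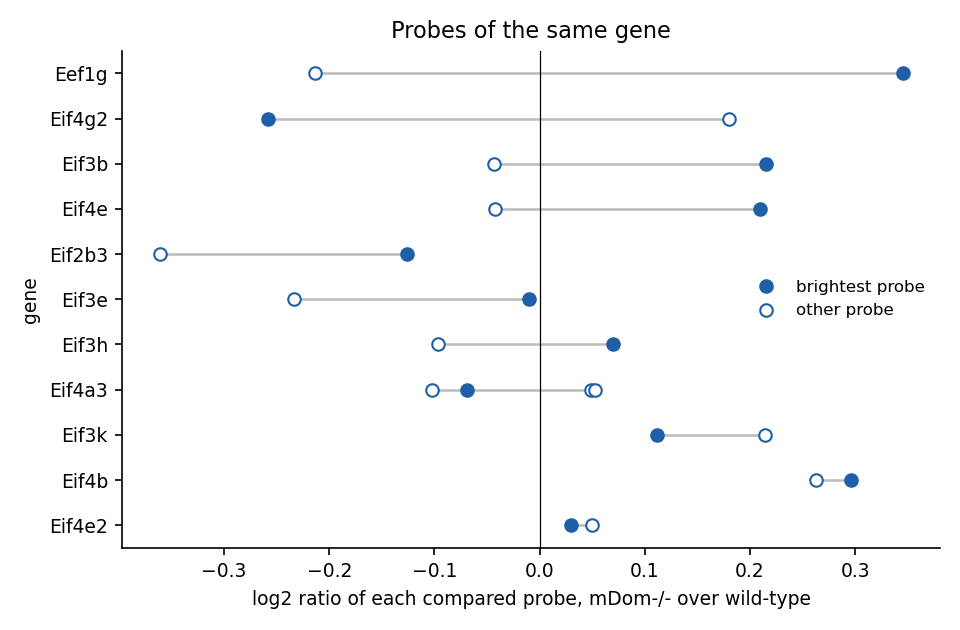
Log2 ratio of each compared probe for the 11 factor genes with several, with the brightest probe filled and the others hollow, ordered by the gap between probes. Eif4b and Eif4e2 have probes close together, while the probes of Eef1g and Eif4g2 lie on opposite sides of 0.

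Of 54 compared cytosolic ribosomal protein genes, 52 were above 0, against 49.5% of all compared genes. In the brightest bin, which held 47 of the 54, 72.7% of all genes were above 0. The median of the 54 was 0.25. With quantile normalization that median was 0.02 with 29 above 0, and with loess 0.03 with 31 above 0. Their median deviation from the bins of like brightness was 0.15, but 0.04 with quantile normalization and 0.07 with loess. The brightest bin had a median wild-type intensity of 130.3, below that of most of these genes, so it matches their brightness only loosely. The 9 factor genes on the TOP list moved likewise with the scaling: their median was 0.15 (7 above 0), but -0.0023 with quantile normalization and -0.07 with loess. The 47 other factor genes had a median of -0.09, and between -0.10 and -0.07 under the alternatives. The TOP list was drawn up from general knowledge with the ribosomal protein result known, and all of these 9 but Eef2 were in the brightest bin, where the scalings differ most.

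The genes for cytosolic aminoacyl-tRNA synthetases, which charge tRNAs and feed eEF1A, all had ratios below 0 (17 of 17, against 50.5% of all compared genes). The median of the 17 was -0.28, against -0.02 for the factors, and their deviation from genes of like brightness had a median of -0.29. Cars, for cysteine, was the lowest at 1.62 in wild-type and 0.882 in mDom-/- (-0.88), and the brighter Vars and Lars, for valine and leucine, read 37.9 against 26.2 (-0.54) and 10.7 against 7.24 (-0.56). Aars, for alanine, was the highest at 36.9 on both arrays (-0.0031). Over the scaling, floor and probe alternatives the median stayed between -0.32 and -0.24, with 3 of 17 above 0 under 75th percentile scaling and none above 0 under the others. A log2 ratio 0.32 or more below 0 was found for 8 of the 17, and for 14.2% of all compared genes.

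Of 16 other factors of initiation, termination and recycling, 10 were below 0 (62.5%, against 50.5% of all compared genes), with a median of -0.12. Gspt2, a paralogue of the release factor gene Gspt1, read 3.61 and 2.20 (-0.71, 1.64-fold lower), and Eefsec, the elongation factor for selenocysteine, 1.05 and 0.682 (-0.63). Gspt1 had -0.35, the recycling factor gene Abce1 60.7 against 48.3 (-0.33), and Denr, a reinitiation factor, 66.3 against 52.6 (-0.34). Paip1 and Paip2, which respectively stimulate and inhibit the poly(A)-binding protein, had opposite ratios of -0.35 and 0.25, and Pabpc1, the poly(A)-binding protein gene, had 0.19. A log2 ratio 0.32 or more below 0 was found for 6 of the 16, and none was that far above it, where the shares of all compared genes were 14.2% and 12.4%.

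Genes that control the factors were close to even. Of 11 compared genes of mTOR and eIF2 phosphatase control, 6 were above 0, with a median of 0.02 (-0.04 with quantile normalization, -0.08 with loess) and no member 1.5-fold apart. The highest was Ppp1r15b, which targets the phosphatase to eIF2 (13.4 and 15.5, 0.22), and the lowest was Mknk1, an eIF4E kinase, at least 1.32-fold lower. Mtor itself read 11.8 and 10.7 (-0.13). Of 8 compared targets of amino acid stress, whose messengers follow eIF2 phosphorylation, 5 were below 0 with a median of -0.18. They went both ways, from Trib3 (at least 1.63-fold lower) to Sesn2 (at least 2.10-fold higher), and Atf4, the transcription factor of that response, read 243.7 and 295.2 (0.28).

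**Figure D5:**
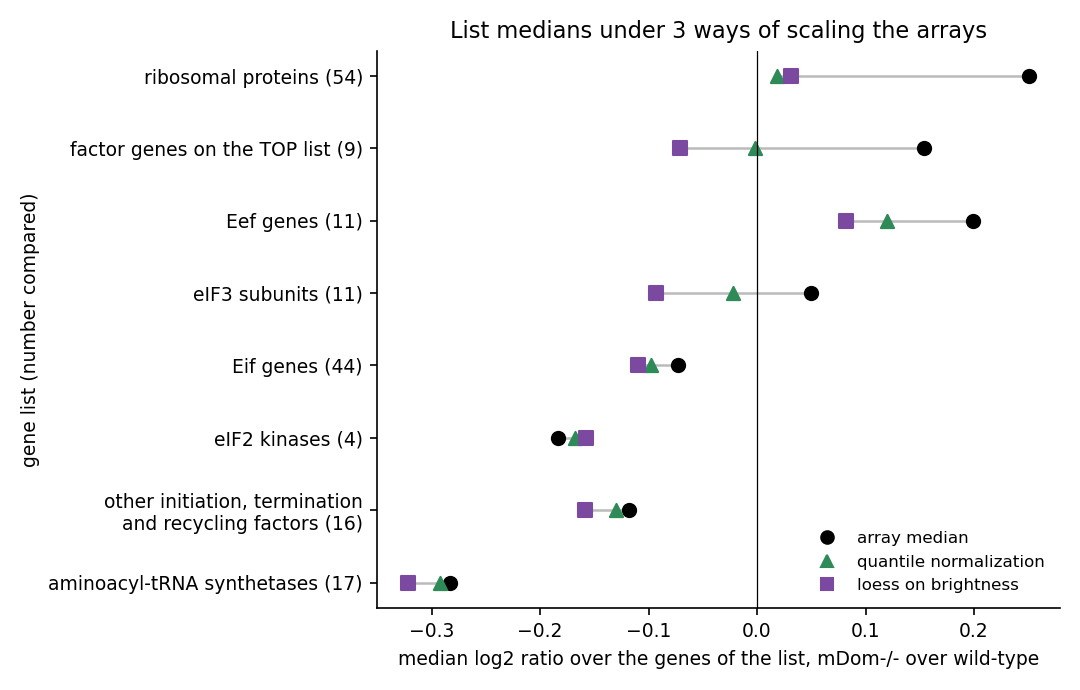
Median log2 ratio (horizontal) of 8 gene lists of the translation machinery (vertical, number of compared genes in brackets) with each array divided by its median, with quantile normalization and with loess on brightness. The medians of the ribosomal protein, TOP, Eef and eIF3 lists move by 0.07 or more toward or past 0. The synthetase list stays between -0.32 and -0.28.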

How the data were processed

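Total RNA from 1 wild-type and 1 mDom-/- pool of E8.5 embryos was measured on 1 array each. The authors analysed the images with CodeLink System Software, per the labels, and deposited 1 linear intensity per probe. The software's version, background correction, scaling and detection flags were not given in the sources read here. The deposited medians were 1.05 on both arrays, and the code -9999 was read as no value. Genes were named through the platform annotation and RefSeq (GRCm38.p6), and all 74 member probes had a current symbol there.

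Each array was divided by its median, raised to a floor (the higher of the 40th percentiles, 0.541) and put on the log2 scale. A probe was compared when above the floor on at least 1 array, and a gene took its probe of highest mean log2 intensity. Where 1 array was below the floor the ratio is a bound. Like brightness means the same of 20 equal bins of mean log2 intensity. All compared genes entered the bins and shares. Loess used a span of 0.3 (statsmodels 0.14.6, Python 3.11.15), and the ratio script was tested on simulated data. Members, lists and motifs were chosen with earlier results of these data known. Named genes were all members, and of other lists the highest, the lowest and members of known role. Those named between the extremes were chosen after their values were seen.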

Additional observations from a re-analysis of the deposited data

How the results depend on the processing

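The median log2 ratio of the factor genes stayed between -0.10 (loess) and 0.00036 (75th percentile scaling, where the median of all genes was 0.02), and the median deviation from genes of like brightness between -0.09 and -0.06. The number at least 1.5-fold apart followed the floor: 1 (Eif2d) as reported, 4 with the 25th percentile floor (Eef2k, Eif2ak1, Eif2d and Eif5b), 5 with no floor (Eif4e1b as well) and 0 with the 60th percentile floor. The shares of all compared genes lower and higher by that much were 8.62% and 8.87%, 11.6% and 12.1%, and 2.20% and 2.19% in the same order, with 58, 58 and 50 factor genes compared. With a 2-fold rule it was 0 and with a rule of 0.32 on the log2 scale 5 (Eif2d, Eif3d and Eif2ak2 lower, Eef1g and Eef2k higher). Leaving out Eif2c5, chosen after the data were seen, gave medians of -0.02 and -0.09 and the same count. Of 56 genes, 40 kept the sign of their ratio in each alternative that compared them and 16 did not, and 11 of 16 complexes kept the sign of their median. Beyond the SD between probes moved Eef1g (0.07 as the mean over probes) and, with lower floors, Eef2k and Eif2ak1. No paired analysis was possible because each group has 1 array. Values near the floor are limited by signal over background.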
